A study of Mus musculus with 10 samples.

Results

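Read counts per gene were compared between RNA of 4-thiouridine (4sU) labelled cells that had gone through the TUC conversion reaction and labelled RNA that had not. The 4 libraries of this comparison, TUC A and B and unconverted A and B, were chosen by their labels from the 10 libraries of the study. All came from NIH-3T3, an established mouse embryonic fibroblast line with a wild-type genotype label. Both groups had received 800 µM 4sU for 2 h, so the labelling itself is common to them. In the TUC group the isolated RNA was incubated warm with osmium tetroxide and an ammonium salt and was then precipitated, whereas the unconverted group is labelled as having no conversion protocol. Reaction, incubation and precipitation occur together in every TUC library, and their effects cannot be told apart. The study addresses bias in gene quantification caused by nucleotide conversion. Its other libraries, 2 per group, were untreated, given 800 µM uridine for 2 h, or labelled with 4sU and alkylated with iodoacetamide (SLAM). Separate cultures are not stated for the replicates, and p-values here cover no more than the spread among the libraries, which can be technical.

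4sU is a uridine analogue that cells take up, phosphorylate and build into the RNA they are making. TUC chemistry turns the incorporated 4-thiouridine into cytidine, so that a sequencing read of new RNA carries C where the gene has T, while RNA that existed before labelling reads unchanged. The new-to-total RNA ratio (NTR) estimated from such reads is high for transcripts that are replaced quickly, such as those of immediate-early transcription factors, and low for stable transcripts, such as those of ribosomal proteins. An unbiased conversion would leave the total read count of each gene as it is in unconverted RNA, which is the quantity compared here.

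The TUC libraries held 27166192 (A) and 31070790 (B) counts assigned to genes, and the unconverted libraries 29047466 (A) and 32804881 (B). The NTR followed the labels: its median over 10232 genes with a mean of 100 counts or more was 0.547 in TUC A and 0.632 in TUC B, against 0.0194 in unconverted A and 0.0177 in unconverted B. The groups did not overlap. The ratio of a gene in TUC A ranked genes almost as TUC B did (Spearman 0.989 across genes, which are not independent replicates). All 15 fibroblast identity markers listed passed the count filter. Of the markers of other cell types, 0 of 10 epithelial, 3 of 8 macrophage, 3 of 8 endothelial and 3 of 9 muscle and adipocyte genes passed it, and among them 1 gene was called, Lpl, which encodes lipoprotein lipase and fell by 0.29 on the log2 scale, a call lost with any 1 of the 4 libraries left out.

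Short genes gained counts relative to long genes in TUC libraries. Counts are shares of a library, so a rise of short genes and a fall of long ones cannot be told apart. The reaction acted on isolated RNA, so it could alter neither cell numbers nor RNA per cell. Had the cultures of the groups differed in these, bulk RNA could not tell them apart. Of 12218 genes tested, 3151 (25.8%) were called at a Benjamini-Hochberg adjusted p under 0.05 (edgeR, quasi-likelihood test), with the replicate letter as a block. Of these, 1418 (11.6% of the genes tested) were higher and 1733 (14.2%) lower in TUC. Each of the 3151 had the same sign in letter A and in letter B. Most differences were small: 48 genes (0.393%) were called higher and 146 (1.19%) lower by more than 1.5-fold, and the median log2 fold change of all genes tested was 0.0085. The calls rest on the block. Without it 0 genes were called by edgeR, with 846 genes at an unadjusted p under 0.05 against 4635 with it, since libraries of one letter resembled each other across groups (correlation of A minus B differences between TUC and unconverted 0.636 across genes). Leaving out a library left 661 calls without unconverted A, 1132 without unconverted B, 1226 without TUC A and 568 without TUC B, of which 659, 1114, 1201 and 559 were among the 3151.

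The median log2 fold change fell along the deposited gene length from 0.19 in the shortest of 5 equal bins (225 to 2019 bases) through 0.083, -0.0091 and -0.091 to -0.24 in the longest (5329 to 123179 bases). Of all 10232 genes in the bins, 30% were called, 13.4% higher and 16.5% lower. In the shortest bin 858 of 2046 genes (41.9%) were higher and 24 (1.17%) lower. In the longest bin 29 of 2047 genes (1.42%) were higher and 1188 (58%) lower. Both letters gave nearly the same medians in the end bins, 0.19 in A and 0.18 in B for the shortest, and -0.23 in A and -0.25 in B for the longest. Over 10 bins the medians ran from 0.22, with 54% of genes higher, to -0.32, with 70.1% of genes lower. The Spearman correlation of log2 fold change with length was -0.724 over 10232 genes (-0.664 in letter A and -0.704 in letter B), a description across genes that share the same 4 libraries and their depth. With the mean level in CPM (each library's counts divided by its TMM-scaled total) it was 0.0314. The counts of the end bins depended on each library: higher calls in the shortest bin numbered 71 without unconverted A, 265 without unconverted B, 222 without TUC A and 127 without TUC B, and lower calls in the longest bin 456, 590, 710 and 300.

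**Figure D1:**
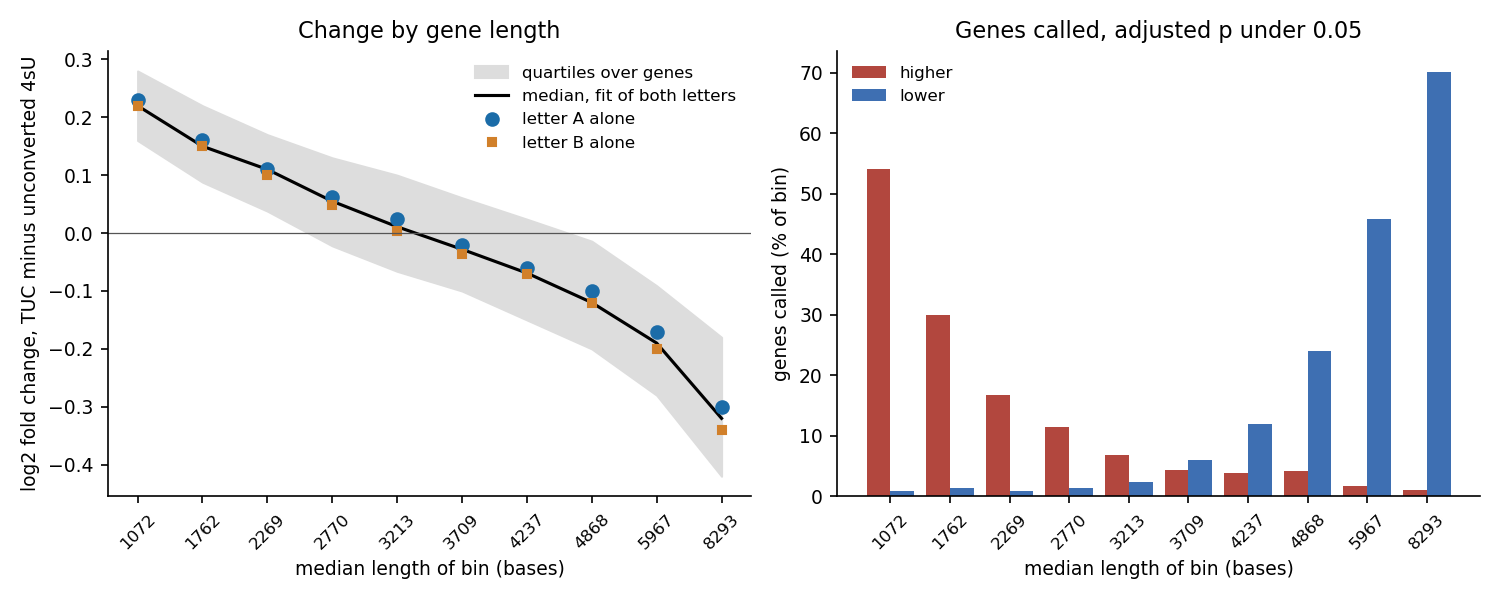
Change in TUC libraries by gene length, in 10 equal bins of 10232 genes with a mean of 100 counts or more, named on the x axis by their median length in bases. Left, the median log2 fold change (line), the quartiles over genes (grey) and each letter alone (points); right, the share of genes called higher or lower. The median passes from 0.22 to -0.32, and the share of lower calls reaches 70.1%.

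The same axis separated the letters. For each library, the median log2 level of the longest bin was set against that of the shortest, each gene relative to its mean over all 10 libraries. The values were -0.12 (A) and 0.27 (B) in unconverted libraries, and -0.55 (A) and -0.16 (B) in TUC libraries. Both TUC libraries lay below both unconverted ones, and within each group letter A lay below letter B. TUC minus unconverted was -0.43, the most extreme value of the 2-against-2 exact permutation test (two-sided p = 0.333, the smallest it can give). Untreated libraries stood at 0.19 and 0.48, uridine libraries at 0.1 and 0.5, and SLAM libraries at -0.7 and -0.036. The difference of letter A from letter B correlated with length in the TUC group (Spearman -0.502 across genes) and in the unconverted group (-0.529), so a library-wide length gradient that is not due to the groups moves with the result. Its part in the result was not tested. Within the block both letters gave the same shift, and a fit with a length trend removed from each library is given below.

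**Figure D2:**
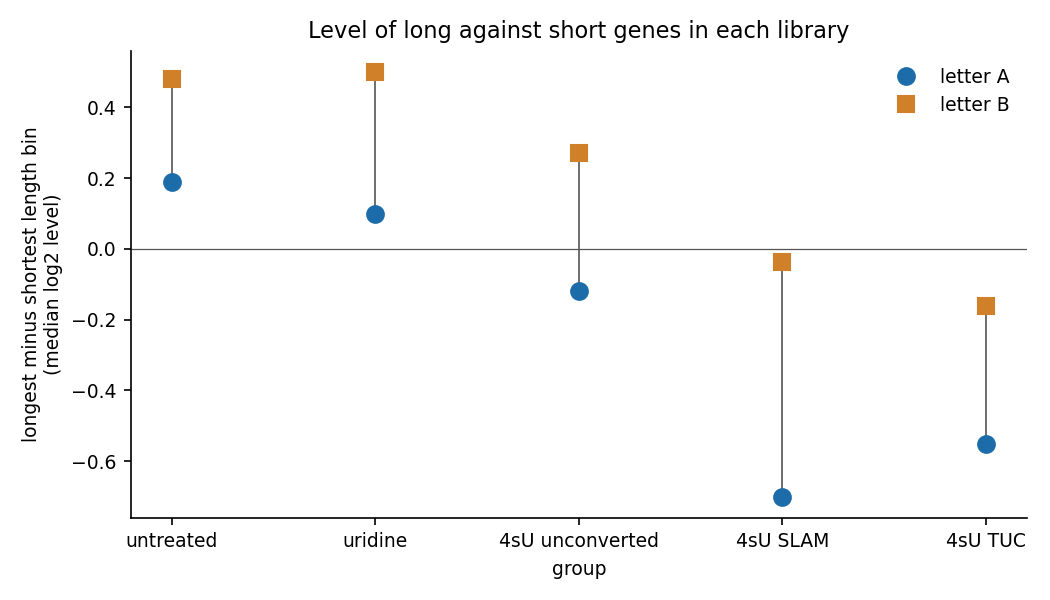
Level of long against short genes in each of the 10 libraries: the y axis is the median log2 level of the longest minus the shortest of 5 length bins, each gene relative to its mean over all libraries, and lines join letters A and B of a group. TUC libraries sit at -0.55 and -0.16, below the unconverted ones at -0.12 and 0.27, and letter A lies below letter B in every group.

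Genes with much new RNA lost counts relative to genes with little. Across 5 equal bins of the mean NTR of the TUC libraries, the median log2 fold change was 0.16 in the lowest (NTR up to 0.288), then 0.063, -0.018 and -0.079, and -0.1 in the highest (NTR from 0.903). In the lowest bin 757 of 2046 genes (37%) were higher and 96 (4.69%) lower, and in the highest 61 of 2047 (2.98%) were higher and 548 (26.8%) lower. Leaving out a library left 61 (unconverted A), 228 (unconverted B), 180 (TUC A) and 113 (TUC B) higher calls in the lowest bin, and 172, 207, 208 and 130 lower calls in the highest. The Spearman correlation with NTR was -0.452 across genes. It was -0.479 when the change in letter A was set against the NTR of TUC B, and -0.369 for letter B against TUC A. Change and ratio then came from different converted libraries. The ratios of TUC A and TUC B ranked genes almost alike (Spearman 0.989), so this exchange could hardly alter the relation. Per library, the highest minus the lowest NTR bin stood at -0.064 (A) and 0.2 (B) in unconverted and at -0.35 (A) and -0.031 (B) in TUC libraries. Here the groups overlapped, and the difference of -0.26 had an exact permutation p of 0.667 (two-sided, with 0.333 the smallest possible).

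Length and NTR were themselves related (Spearman 0.331 across genes), and each kept a gradient within classes of the other. In 3 classes of length by 3 of NTR, the median log2 fold change went from 0.19 among short genes with a low NTR, of which 46.4% were higher, to -0.22 among long genes with a high NTR, of which 50% were lower. Long minus short within a class of NTR averaged -0.29 (-0.28 in letter A, -0.3 in letter B). High minus low NTR within a class of length averaged -0.12 (-0.15 in letter A, -0.09 in letter B). Among short genes alone the median went from 0.19 (816 of 1759 higher) at low NTR to 0.071 (60 of 682 higher) at high NTR. A class does not hold length fixed: the median length of these short genes was 1666 bases at low NTR and 2047 at high NTR. The partial rank correlation across genes was -0.682 for length given NTR and -0.326 for NTR given length.

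**Figure D3:**
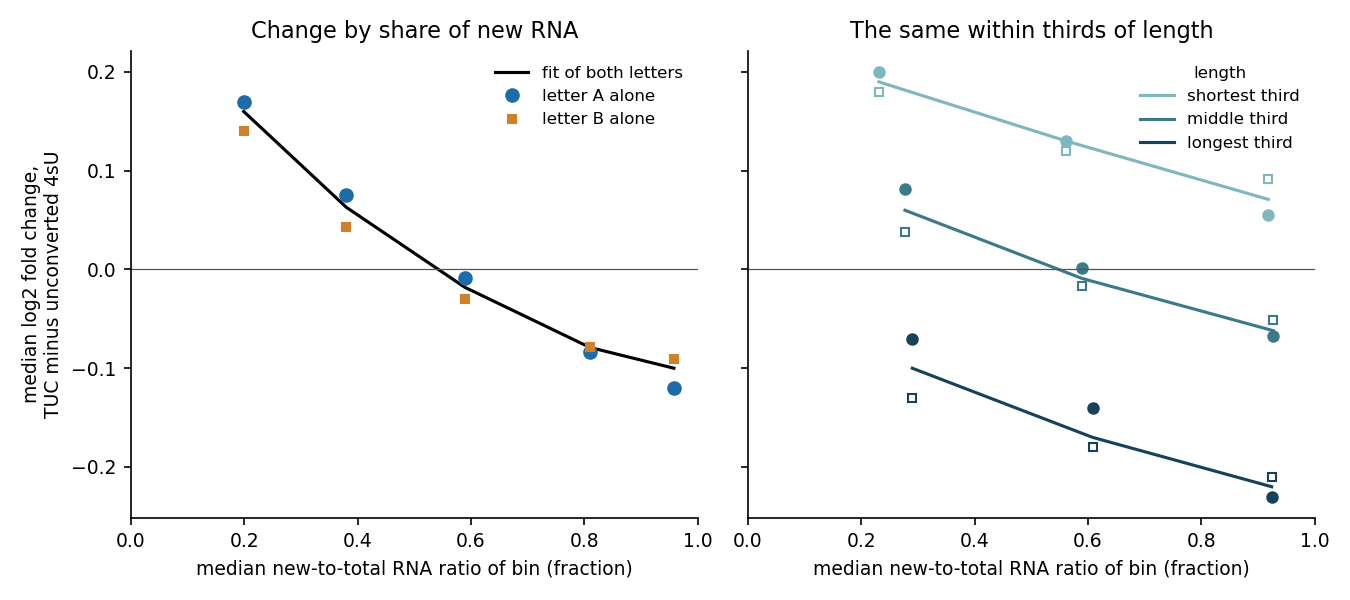
Median log2 fold change, TUC minus unconverted 4sU, against the median NTR of each bin. Left, 5 NTR bins of all 10232 genes; right, 3 NTR classes within 3 classes of length, with filled circles for letter A and open squares for letter B. The median declines with NTR from 0.16 to -0.1 on the left and, within lengths, from 0.19 to 0.071 among short genes and from -0.1 to -0.22 among long genes.

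Families of short transcripts rose together. Of 81 cytosolic ribosomal protein genes tested, which encode the protein part of the ribosome, 71 rose and 0 fell (median log2 fold change 0.26, median length 1049 bases, median NTR 0.143). Rps23, a protein of the small subunit, stood at 449.4 (A) and 449.9 (B) CPM in unconverted libraries, and at 754 in TUC A and 557 in TUC B. Both TUC libraries were above both unconverted ones, with letter A the higher, and the log2 fold change was 0.52 ± 0.0899 (SE; adjusted p = 0.00112). Rpl39l, a paralogue of a large-subunit protein, stood at 144 (A) and 104 (B) CPM in unconverted and 181 and 143 in TUC libraries. The groups overlapped slightly, TUC B lying just under unconverted A, and within each letter TUC was higher (0.4 ± 0.066, adjusted p = 0.00092). Rps27l and Rpl22l1, further paralogues of ribosomal proteins, rose by 0.39 and 0.37, Rps27l not being called without unconverted A or TUC B, and Rpl22l1 only called without unconverted B among these fits. Higher calls in this family fell to 10 without unconverted A, 38 without unconverted B, 36 without TUC A and 22 without TUC B.

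Nuclear genes of oxidative phosphorylation, the respiratory chain and ATP synthase, gave 57 higher and 0 lower of 76 (median 0.22, median length 1152 bases). Ndufa1, a subunit of complex I, stood at 38.4 (A) and 32.8 (B) CPM in unconverted and 44.0 and 48.4 in TUC libraries, without overlap (0.38 ± 0.0763, adjusted p = 0.00255). That call was lost without unconverted B or TUC B. Cox5a, a subunit of cytochrome c oxidase, rose by 0.36, and Ndufs7 and Ndufa5, also of complex I, by 0.35 each, the call of Ndufs7 being lost without unconverted A or TUC B and that of Ndufa5 without unconverted B or TUC B. Mitochondrial ribosomal proteins gave 46 higher and 0 lower of 78 (median 0.21, length 1803 bases), led by Mrpl27 (0.38), Mrpl53 (0.36), Mrpl21 (0.36) and Mrpl51 (0.35), of which Mrpl27 lost its call without unconverted A and Mrpl53 without unconverted A or TUC A. Proteasome subunits gave 25 higher and 0 lower of 36 (median 0.19, length 1586 bases), with Psmb10, an immunoproteasome subunit, at 0.32 and Psma7, of the core's outer ring, at 0.31. Psmb10 was not called with any 1 of the 4 libraries left out. For comparison, 41.9% of all genes in the shortest of 5 length bins were higher, with a median of 0.19. The median lengths of the cytosolic ribosomal and oxidative phosphorylation genes lie in the shortest of 10 bins (225 to 1445 bases). There 54% of all genes were higher, with a median of 0.22. Among genes in both the shortest of 5 length bins and the lowest of 5 NTR bins, 60.7% were higher, with a median of 0.23. Without unconverted A the higher calls were 6, 5 and 1 in these 3 families, without TUC B 6, 7 and 5, without TUC A 20, 13 and 3, and without unconverted B 20, 11 and 7.

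Of 36 collagens and matrix genes, which build the extracellular matrix, 12 fell, 0 rose and 24 were not called (median -0.1, median length 5456 bases, median NTR 0.228 over all 36). The 33.3% that fell stands against 14.2% of all genes tested, and against 58%, with a median of -0.24, of all genes in the longest length bin, in which the list's median length lies. Fn1, which encodes fibronectin, stood at 7219 (A) and 10700 (B) CPM in unconverted and 5537 and 7919 in TUC libraries. The groups overlapped because letter B was higher in both, and TUC was lower within each letter (-0.41 ± 0.0718, adjusted p = 0.0012). Fbn1, encoding fibrillin 1 of elastic microfibrils, stood at 139 and 149 CPM in unconverted and 107 in each TUC library, without overlap (-0.43 ± 0.073, adjusted p = 0.00105). Col12a1, a fibril-associated collagen, and Lamc1, a laminin chain, fell by 0.57 and 0.36 on the log2 scale, and Fbn1, Col12a1 and Lamc1 were not called without TUC B. The 12 lower calls became 5 without unconverted A, 8 without unconverted B and 1 without TUC B, and stayed 12 in number without TUC A.

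Among 15 fibroblast identity markers, 2 rose (13.3%) and 4 fell (26.7%; median -0.027), against 11.6% and 14.2% of all genes tested. Their median length of 5348 bases lies in the longest of 5 length bins, where 1.42% of all genes were higher and 58% lower. S100a4, a short calcium-binding protein gene (498 bases), stood at 1561 and 1590 CPM in unconverted and 2160 and 1988 in TUC libraries, without overlap, and rose by 0.39 ± 0.0612 (adjusted p = 0.000641). Pdgfra, the receptor for platelet-derived growth factor (6834 bases), stood at 277 and 384 CPM in unconverted and 228 and 299 in TUC libraries, which overlap across letters, and fell by 0.32 (adjusted p = 0.00122), a call lost without TUC B. Without TUC B 1 marker rose and 1 fell. Actin cytoskeleton and SRF target genes went both ways, with 14 higher (35.9%) and 6 lower (15.4%, near the 14.2% of all genes) of 39 (median 0.1). Tmsb4x, encoding the actin-sequestering thymosin beta 4 (864 bases), rose by 0.32, and Flnc, a filamin gene encoding an actin crosslinker (9038 bases), fell by 0.34. Higher calls in that list were 4 without unconverted A, 6 without unconverted B, 6 without TUC A and 4 without TUC B, and lower calls 2, 4, 6 and 2.

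Lower calls also outnumbered higher ones in further lists, 4 of which are given here, as they did over all genes tested (14.2% lower, 11.6% higher). DEAD and DEAH box helicases, enzymes that unwind RNA, gave 1 higher and 12 lower (24.5%) of 49 (median -0.069). Dhx9, a helicase that resolves double-stranded RNA, stood at 152 and 145 CPM in unconverted and 84.9 and 106 in TUC libraries, without overlap (-0.64 ± 0.136, adjusted p = 0.00398), a call lost without unconverted A or TUC A. Zinc finger Zfp genes, mostly DNA-binding repressors with short-lived transcripts (median NTR 0.938), gave 4 higher and 49 lower of 341 (14.4%, near the 14.2% of all genes; median -0.072). G2 and mitosis genes gave 1 higher and 7 lower (19.4%) of 36 (median -0.055), among them Aspm, a spindle pole protein (-0.53), Mki67, the proliferation antigen (-0.38), and the kinetochore motor Cenpe (-0.36). Ribosome biogenesis genes gave 0 higher and 7 lower (15.6%, again near all genes) of 45 (median -0.034), led by Utp20 (-0.45) and Heatr1 (-0.34), both of the small-subunit processome, and Polr1a, the largest subunit of RNA polymerase I (-0.32). Mki67 and Heatr1 were not called without unconverted A or TUC B, Cenpe without unconverted B or TUC B, and Polr1a without TUC B. Lower calls in the helicase, zinc finger, mitosis and biogenesis lists numbered 0, 15, 2 and 2 without unconverted A, 3, 22, 3 and 4 without unconverted B, 3, 22, 7 and 4 without TUC A, and 3, 7, 1 and 1 without TUC B.

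**Figure D4:**
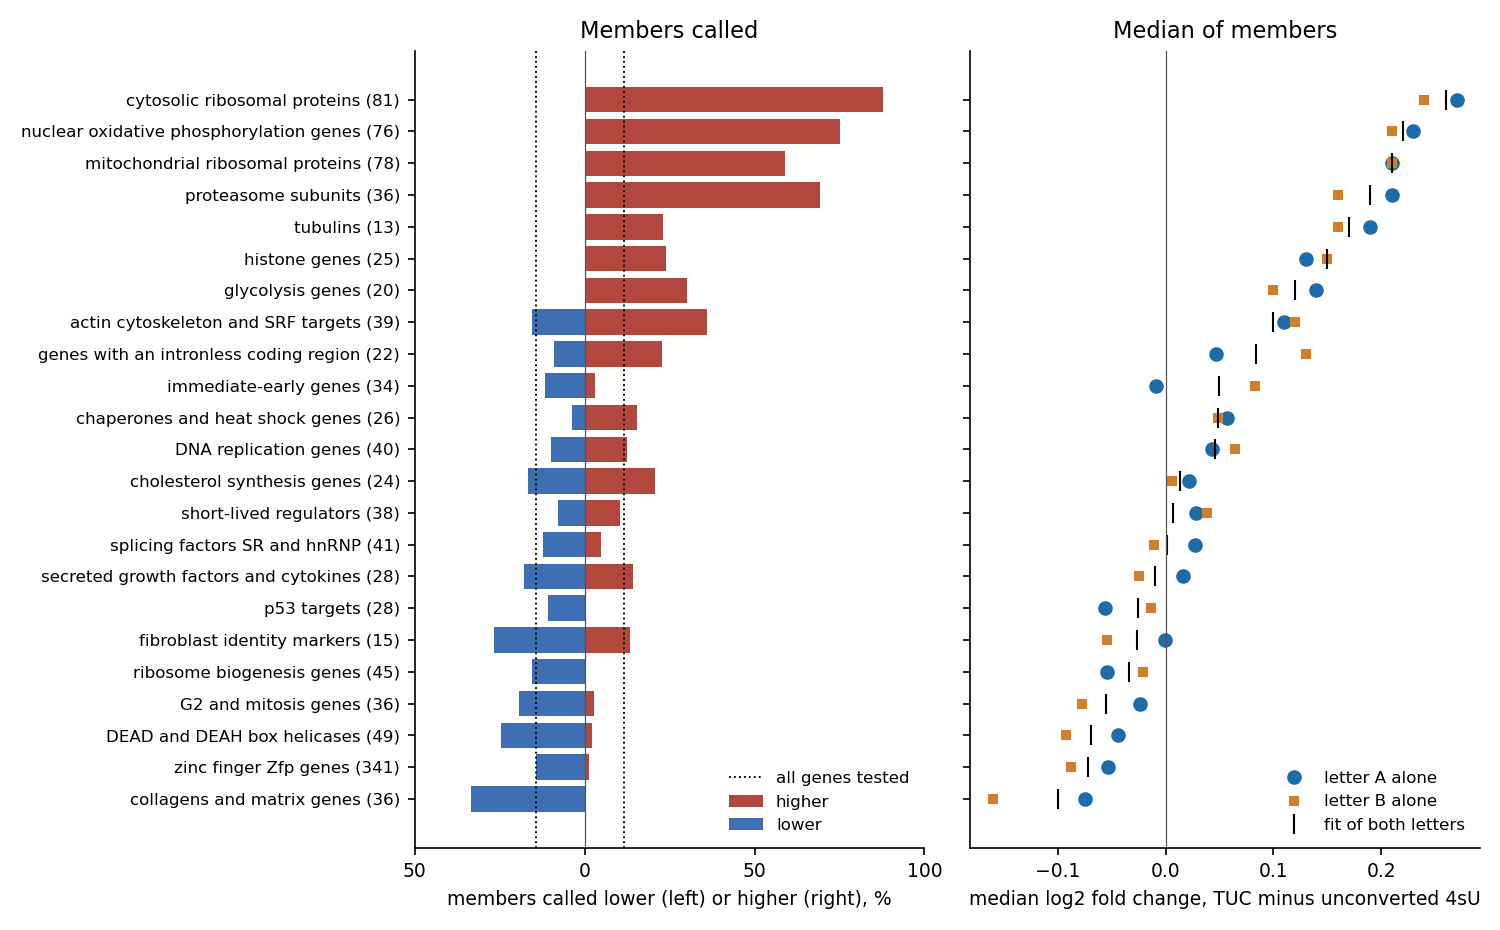
Gene lists with 13 or more genes tested (number in brackets). Left, the percentage of members called higher (red) or lower (blue) in TUC, with dotted lines at 11.6% and 14.2% of all genes tested; right, the median log2 fold change of the members, with each letter alone. Ribosomal proteins reach 87.7% higher, and 33.3% of collagens and matrix genes are lower.

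Lists made up of short-lived transcripts did not share 1 direction. Of 34 immediate-early genes, the rapid transcriptional response to growth factors (median NTR 0.976), 1 rose and 4 fell (2.94% and 11.8%, both below the 11.6% and 14.2% of all genes; median 0.05). Dusp4, a phosphatase of MAP kinases, stood at 179 and 209 CPM in unconverted and 126 and 153 in TUC libraries, without overlap, and fell by 0.48 ± 0.0782 (adjusted p = 0.000806). Fosl2, a subunit of AP-1, and Klf6, a zinc finger factor, fell by 0.28 and 0.23, and Btg1, an antiproliferative gene, rose by 0.26. Of these, Fosl2 was called only in the fit without unconverted B and Klf6 in none of the 4 fits with a library left out. Without unconverted A, TUC A or TUC B 1 of the list rose and 1 fell, and without unconverted B 1 rose and 2 fell. Of 38 short-lived regulators, 4 rose and 3 fell (10.5% and 7.89%, also below those of all genes; median 0.0068), with Cebpb at 0.26 and Nfkbiz at -0.3, and 3 of the calls were left without TUC A, 1 without TUC B and 0 without either unconverted library. Of 28 p53 targets, genes induced by DNA damage and nucleolar stress, 0 rose and 3 fell (10.7%, below the 14.2% of all genes; Eda2r -0.32, Mdm4 -0.28, Sesn2 -0.22), and 0 were called with any of the 4 libraries left out. Of 28 secreted growth factors and cytokines, 4 rose and 5 fell (14.3% and 17.9%), with the chemokine genes Cxcl5 and Ccl7 at 0.32 each and the growth factor genes Fgf2 and Hgf at -0.34 and -0.33. Ccl7 lost its call without unconverted A, Hgf without unconverted A or TUC B, and Cxcl5 without any library but TUC A. The calls of this list numbered 1 without unconverted A, 3 without TUC B, 4 without unconverted B and 5 without TUC A.

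The reference genes of quick turnover, Cdkn1a, Mdm2, Myc, Jun and Fos, were not called. Cdkn1a, which encodes the cell-cycle inhibitor p21, stood at 244 (A) and 245 (B) CPM in unconverted and 240.1 and 246 in TUC libraries (log2 fold change -0.0081 ± 0.0498, adjusted p = 0.926) with an NTR of 0.98. Mdm2, the ubiquitin ligase of p53, had -0.08 ± 0.0724 (adjusted p = 0.442), Myc 0.018 ± 0.0651 (0.868), Jun -0.12 ± 0.0578 (0.151) and Fos, at 3.15 to 3.76 CPM, 0.15 ± 0.152 (0.504). Actb, the cytoplasmic actin gene often used for normalisation, stood at 3754 and 3397 CPM in unconverted and 4564 and 4369 in TUC libraries, without overlap. It rose by 0.32 ± 0.0648 (adjusted p = 0.00271), and the call was lost without unconverted B or TUC B. Gapdh, the glycolytic reference gene, rose by 0.24 ± 0.077 (adjusted p = 0.0318), a call that was lost with any 1 of the 4 libraries left out. Malat1, a long noncoding RNA kept in the nucleus, was the most uneven: 477 (A) and 1122 (B) CPM in unconverted, 792 and 799 in TUC libraries. It differed by 0.73 in letter A and by -0.49 in letter B, and the fitted value of 0.18 ± 0.197 (adjusted p = 0.545) became -0.45 (0.028) without TUC A and 0.68 (0.0185) without TUC B.

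Of all genes tested, 11.6% were higher and 14.2% lower. Tubulins gave 3 higher (23.1%) and 0 lower of 13 (median 0.17). Histone genes gave 6 (24%) and 0 of 25 (0.15), and glycolysis genes 6 (30%) and 0 of 20 (0.12). The median lengths of the tubulin and histone genes lie in the shortest of 5 length bins. There 41.9% of all genes were higher, with a median of 0.19. The median length of the glycolysis genes lies in the next bin, where 14.1% were higher, with a median of 0.083. Chaperones gave 4 and 1 of 26 (15.4% and 3.85%), and DNA replication genes 5 and 4 of 40 (12.5% and 10%). Cholesterol synthesis genes gave 5 and 4 of 24 (20.8% and 16.7%). Splicing factors of the SR and hnRNP families gave 2 and 5 of 41 (4.88% and 12.2%). The medians of these 4 lists lay between 0.0016 and 0.049. Of 4 snoRNA host genes 2 rose, Snhg6 and Snhg18 (0.37 and 0.23). Of 7 nuclear noncoding RNAs 0 rose and 1 fell, Meg3 (-0.46). Snhg6 was not called without unconverted A or TUC B, Snhg18 with any 1 library left out, and Meg3 without any library but unconverted A. Genes with an intronless coding region gave 5 higher (22.7%) and 2 lower (9.09%) of 22 (median 0.084). With a library left out, every one of these lists had at most 4 calls.

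The genes with the largest calls above 10 CPM did not all follow length. Dpysl2, which encodes a microtubule-associated protein of axon growth (4520 bases), stood at 36.1 (A) and 37.2 (B) CPM in unconverted and 71.9 and 80.6 in TUC libraries. The groups were far apart, with a log2 fold change of 1.06 ± 0.0634 (adjusted p = 1.63e-07), and it was called with any 1 library left out. Its annotated span overlaps Pnma2, and without strand their reads cannot be told apart. Lrrc8a, the core subunit of the volume-regulated anion channel, followed with 34.8 and 34.7 CPM against 51.1 and 54.3 (0.6 ± 0.0648, adjusted p = 9.15e-05). Pin4, a peptidyl-prolyl isomerase, stood at 12.7 and 12.3 against 23.3 and 14.8 CPM (0.57 ± 0.114, adjusted p = 0.00247), so most of its rise came from TUC A, and it was not called without TUC A or unconverted A.

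Irf2bp2, a transcriptional corepressor (5080 bases), stood at 124 and 132 CPM in unconverted and 164 and 189 in TUC libraries (0.46 ± 0.0616, adjusted p = 0.000317). Nfia, a nuclear factor I transcription factor with a length of 9526 bases, stood at 8.52 and 11.4 against 13.1 and 15.4 CPM, without overlap (0.51 ± 0.101, adjusted p = 0.00232). Both rose against the direction of their length bin, where 1.42% (Nfia) and 4.06% (Irf2bp2) of genes were higher. Med18, a Mediator subunit, rose by 0.54, Ccdc85b, whose coding region is intronless, by 0.53, Dexi by 0.46 and Wdr89 by 0.45. Of all 10 leading genes, Pin4, Med18, Nfia, Dexi and Wdr89 lost the call when at least 1 library was left out, Pin4 as given above, Med18 without unconverted A, Nfia without unconverted A or TUC B, Wdr89 without unconverted B or TUC B, and Dexi without any 1 of the 4.

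The 10 genes with the largest falls were 3863 to 16470 bases long, and each kept its call with any 1 library left out. Zbed6, a transcription factor encoded by an intronless gene within an intron of Zc3h11a, stood at 47.0 (A) and 74.0 (B) CPM in unconverted and 17.9 and 20.0 in TUC libraries. The groups did not overlap, and the log2 fold change was -1.66 ± 0.207 (adjusted p = 0.000226). Its host gene Zc3h11a, named after its values were seen, stood at 162 and 209.9 against 156 and 196 CPM (-0.076 ± 0.056, adjusted p = 0.34). Reads of the 2 genes overlap and may have been split between them in the counting. Atp7a, the copper-transporting ATPase, stood at 17.0 and 22.1 CPM in unconverted and 7.51 and 9.4 in TUC libraries (-1.22 ± 0.137, adjusted p = 0.000126). Hipk2, a nuclear kinase acting on p53, stood at 50.2 and 72.4 against 30.4 and 33.3 CPM (-0.93 ± 0.085, adjusted p = 2.86e-05).

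Atm, the kinase that signals DNA double-strand breaks (10006 bases), stood at 22.2 and 24.5 CPM in unconverted and 11.6 and 13.2 in TUC libraries (-0.92 ± 0.113, adjusted p = 0.000226). Kmt2a, a histone H3 lysine methyltransferase (16470 bases), stood at 52.2 and 93.0 against 26.8 and 52.4 CPM. Its groups overlapped slightly, TUC B lying just above unconverted A, since letter B was higher in both, and within each letter TUC was lower (-0.88 ± 0.112, adjusted p = 0.000243). The other 5 genes, Zfp871, Lmbrd2, Lnpep, Lcor and Pdpr, had log2 fold changes of -1.11, -1.1, -1.1, -1.08 and -1.08. Lnpep encodes a membrane aminopeptidase, Lcor a nuclear receptor corepressor, and Pdpr a regulator of pyruvate dehydrogenase phosphatase. In each of these 5 genes both TUC libraries were below both unconverted ones.

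**Figure D5:**
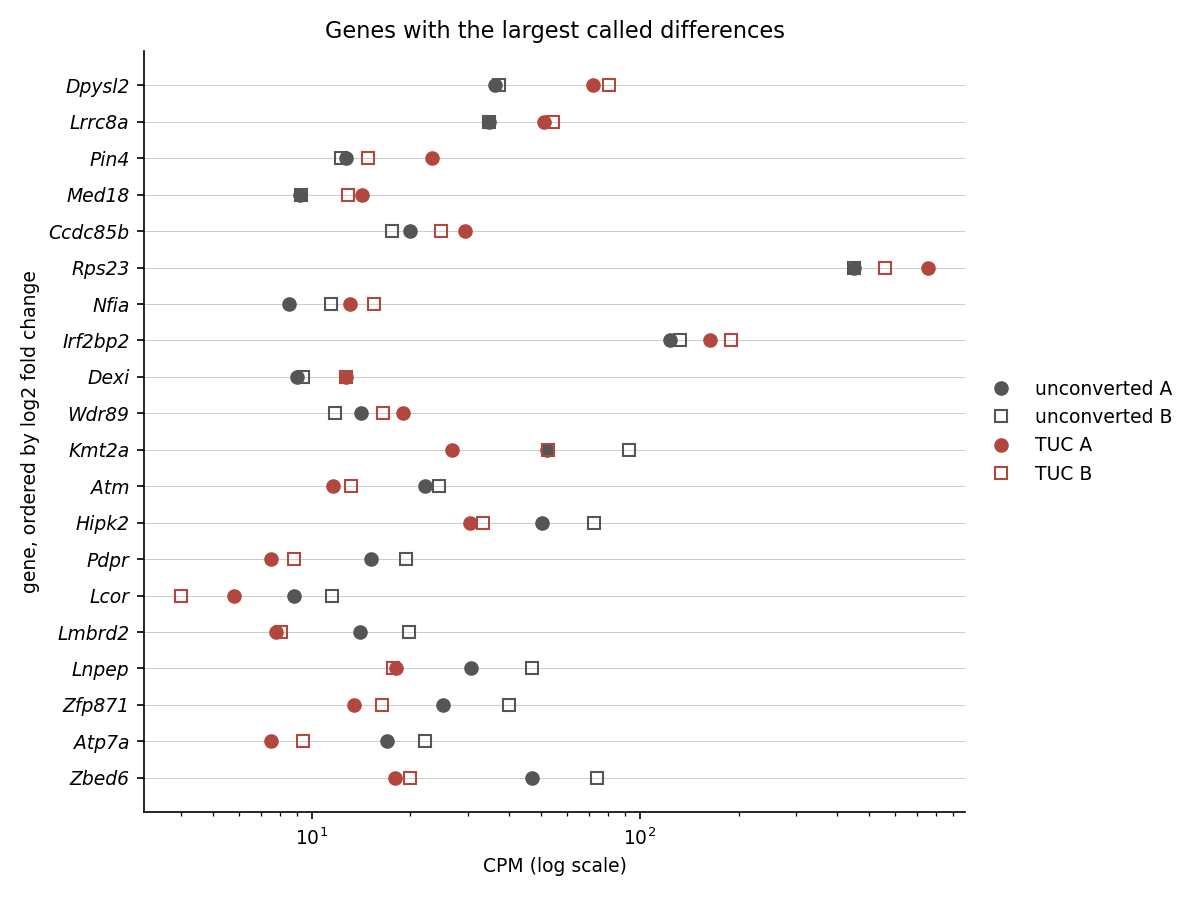
CPM (log axis) in each of the 4 libraries for the 10 genes with the highest and the 10 with the lowest called log2 fold change, ordered by it. Dpysl2 stands at 36.1 and 37.2 unconverted against 71.9 and 80.6 in TUC, and Zbed6 at 47.0 and 74.0 against 17.9 and 20.0.

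Some falls lay far below the median of their length bin. Hspa4, a chaperone of the HSP110 family that serves as nucleotide exchange factor of HSP70 (4618 bases, NTR 0.496), lies in the 4th of the 5 length bins, with a bin median of -0.091, and stood at 557 (A) and 539.8 (B) CPM in unconverted and 347 and 259 in TUC libraries. The groups were far apart (-0.86 ± 0.0789, adjusted p = 2.86e-05), and SLAM libraries stood at 517 and 511, near the unconverted ones. It was the only lower call of 26 chaperone genes, and in the direct test TUC was below SLAM by 0.77 (-0.77, adjusted p = 1.75e-05). In the shortest length bin, where 1.17% of genes were lower, the leading falls were H60b, a ligand of the NKG2D receptor (1080 bases), Npcd (1453 bases) and Fam98b (1979 bases). H60b stood at 24.3 and 24.7 CPM in unconverted and 14.5 and 14.4 in TUC libraries, without overlap (-0.76 ± 0.11, adjusted p = 0.000407). Npcd, annotated across Cbx6 and Nptxr, fell by 0.74, and Fam98b by 0.72, with 34.3 and 21.6 against 17.3 and 15.8 CPM.

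Falls among very long genes included transcripts with a low NTR. Lrp1, the low-density lipoprotein receptor-related protein with a length of 14888 bases and an NTR of 0.198, stood at 1525 (A) and 2455 (B) CPM in unconverted and 977 and 1560 in TUC libraries. The groups overlapped slightly because letter B was higher in both, and the log2 fold change was -0.65 ± 0.0854 (adjusted p = 0.000281). Vps13c, a lipid transfer protein of 11527 bases and an NTR of 0.238, stood at 36.3 and 54.7 against 21.0 and 29.6 CPM (-0.84 ± 0.0852, adjusted p = 7.15e-05).

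Of 91 RefSeq pseudogenes tested, 43 (47.3%) were higher and 3 lower, with a median log2 fold change of 0.38 and a median length of 887 bases. Protein-coding genes gave 1327 higher (11.4%) and 1691 lower (14.6%) of 11594, and long noncoding RNAs 11 and 9 of 197. Within the shortest length bin, 33 of 47 pseudogenes (70.2%; median 0.34, median length 822 bases) and 793 of 1917 protein-coding genes (41.4%; median 0.19, median length 1468 bases) were higher. The bin does not match the types in length: in its shorter part, the first of 10 bins (225 to 1445 bases), 54% of all genes were higher. Higher calls of pseudogenes numbered 17 without unconverted A, 32 without unconverted B, 28 without TUC A and 23 without TUC B. Reads of a pseudogene and its parent may not be told apart in counting, and whether this bears on the rise was not tested. Counts that are not whole were held by 27.7 to 28.7% of all genes in TUC libraries, against 26 to 26.8% in unconverted ones. That share was not taken for pseudogenes alone.

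The following examples were chosen after their values were seen. Rpl13a-ps1 stood at 0.208 (A) and 0.241 (B) CPM in unconverted and 1.3 and 0.987 in TUC libraries (2.31 ± 0.357, adjusted p = 0.000627), and its parent Rpl13a at 1959 and 1522 against 2222 and 1848 (0.23, adjusted p = 0.0173). Rpl7a-ps5 stood at 0.485 and 0.512 against 2.15 and 1.15 CPM (1.67 ± 0.288, adjusted p = 0.00108), and Rpl7a rose by 0.29. The same held for intronless copies of other genes. Cdc34b, a copy of the ubiquitin-conjugating enzyme gene Cdc34, stood at 0.346 and 0.332 against 1.5 and 1.4 CPM (2.08 ± 0.308), while Cdc34 rose by 0.23. Acot10, a copy of the acyl-CoA thioesterase gene Acot9, stood at 0.277 and 0.181 against 1.23 and 1.4 CPM (2.53 ± 0.356), while Acot9 rose by 0.2. The 4 copies were called with any 1 library left out. The calls of Rpl7a and Acot9 were lost in each such fit, and those of Rpl13a and Cdc34 in all but the fit without TUC A. In each of these 4 copies both TUC libraries were above both unconverted ones. As the copies were chosen by their values, that separation and their calls follow from the choice and add no support. They stood at 0.512 CPM or less in unconverted libraries, and DESeq2 gave none of the 4 an adjusted p. Their NTR ranged from 0.397 (Rpl7a-ps5) to 1 (Cdc34b) and rests on few reads. SLAM libraries stood at 2.22 and 2.03 (Rpl13a-ps1), 2.6 and 2.09 (Rpl7a-ps5), 2.43 and 1.97 (Cdc34b) and 1.4 and 1.35 (Acot10) CPM.

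Gm42418, a predicted gene overlapping AY036118 that the names table lists as a pseudogene, rose by 1.45 ± 0.197 (adjusted p = 0.000351), from 5.4 (A) and 3.65 (B) CPM to 19.1 and 6.94. SLAM libraries stood at 3.08 and 0.881, below the unconverted ones, and TUC exceeded SLAM by 2.71 (adjusted p = 3.5e-06). Gm8225 and Gm6576 rose by 0.76 each, with 9.48 and 7.75 against 17.7 and 11.8 CPM for Gm8225, and stood higher in SLAM libraries, at 40.3 and 28.4 CPM (Gm8225) and 33.2 and 23.6 (Gm6576).

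TUC and SLAM libraries were then compared directly. The median NTR was 0.526 (A) and 0.614 (B) in SLAM libraries, so TUC exceeded SLAM by 0.021 in letter A and by 0.0176 in letter B. The mean difference of 0.0193 was smaller than the difference between letters (exact permutation p = 0.667, two-sided, with 0.333 the smallest possible). In counts, 2458 of 12218 genes (20.1%) were called between the chemistries by edgeR with the letter block, 1223 higher (10%) and 1235 lower (10.1%) in TUC. Without the block 0 were called, with 1205 at an unadjusted p under 0.05. Without TUC A 950 were called and without TUC B 1025. Along length the median TUC minus SLAM difference was 0.013 in the shortest and 0.02 in the longest bin, and along NTR -0.019 in the lowest and 0.049 in the highest. These differences turned with the SLAM library used: without SLAM A they were 0.07 in the shortest and -0.06 in the longest bin, and 0.02 and -0.02 in the lowest and highest NTR bins. Without SLAM B they were -0.05 and 0.11 along length, and -0.06 and 0.11 along NTR. Against the same unconverted libraries, the median was 0.19 for TUC and 0.17 for SLAM in the shortest length bin, and -0.24 and -0.26 in the longest. In the highest NTR bin it was -0.1 for TUC and -0.17 for SLAM. These side-by-side values share their control libraries.

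Respiratory chain and ribosomal protein genes were among those higher in TUC than in SLAM. Of all genes tested, 10% were higher and 10.1% lower. Oxidative phosphorylation genes gave 34 higher and 0 lower of 76 (median 0.18). Cytosolic ribosomal proteins gave 32 and 1 of 81 (0.13), and mitochondrial ribosomal proteins 19 and 0 of 78 (0.075). The ribosomal counts were 17 and 0 without TUC B, 21 and 1 without TUC A, 24 and 10 without SLAM B, and 49 and 1 without SLAM A. Those of the mitochondrial ribosome were 6 and 0, 7 and 0, 8 and 7, and 23 and 0, and those of oxidative phosphorylation 17 and 0, 18 and 0, 27 and 4, and 40 and 0. Ndufa1 stood at 30.7 and 29.9 CPM in SLAM libraries, below TUC by a log2 difference of 0.61 (adjusted p = 9.54e-05). Rps27l stood at 108 and 70.2, with 0.64 (6.03e-05). Splicing factors gave 19 higher and 5 lower of 41 (median 0.14), with 13 and 3 without TUC A and 15 and 4 without TUC B. Malat1 stood at 173 and 361 CPM in SLAM libraries, below both TUC libraries by 1.73 (adjusted p = 5.76e-05).

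Collagens and matrix genes gave 1 higher and 14 lower of 36 in TUC against SLAM (median -0.15), with 5 lower without TUC B, 11 without TUC A and 23 without SLAM A. Genes with an intronless coding region gave 2 higher and 12 lower of 22 (median -0.25), with 9 to 15 lower when a library was left out. Over all genes tested, 10% were higher and 10.1% lower in TUC than in SLAM. Ccdc85b stood at 48.8 and 50.2 CPM in SLAM libraries against 29.4 and 24.7 in TUC (-0.88 ± 0.0779, adjusted p = 4.18e-06), although it had risen in TUC against unconverted RNA. Cebpb, a leucine zipper transcription factor, stood at 391 and 328 in SLAM and 204 and 246 in TUC (-0.68, adjusted p = 0.000136). Immediate-early genes gave 3 higher and 9 lower of 34 (median -0.12), with 4 lower without TUC A. Among them Myc stood at 116 and 101 CPM in SLAM libraries against 79.7 and 77.1 in TUC (-0.46, adjusted p = 0.000184), and Fosl1 at 260 and 247 against 189 and 199 (-0.38, adjusted p = 0.000184). Neither gene was called between TUC and unconverted RNA. Polr2a, the largest subunit of RNA polymerase II and named after its values were seen, stood at 165 and 235 CPM in SLAM and 120 and 162 in TUC libraries (-0.5, adjusted p = 0.000105).

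A smooth trend on length was then removed from each library, an alternative chosen after seeing the data. Of 12218 genes tested, 999 were called between TUC and unconverted RNA, 595 higher and 404 lower. Of these 682 were among the 3151, and 6 of the 682 had the opposite sign. The Spearman correlation with length was then -0.0586, small by construction, and that with NTR -0.316 across the same 10232 genes. The step also removes any difference of TUC libraries that runs with length. Fewer calls in lists of short or long genes are therefore partly built in. Cytosolic ribosomal proteins gave 14 higher and 0 lower (median 0.069), mitochondrial ribosomal proteins 15 and 0 (0.072), oxidative phosphorylation genes 7 and 3 (0.051), proteasome subunits 3 and 0 (0.062) and collagens and matrix genes 1 and 1 (0). Zinc finger Zfp genes gave 7 higher and 19 lower, and pseudogenes 14 higher and 5 lower of 91 (median 0.19). Dpysl2 (1.14), Lrrc8a (0.67), Nfia (0.85), Irf2bp2 (0.58), Zbed6 (-1.55), Atp7a (-1.11), Hspa4 (-0.77) and H60b (-0.97) were still called. Fn1 (-0.12, adjusted p = 0.105), Fbn1 (-0.02, 0.882), Mki67 (-0.03, 0.788) and S100a4 (0.12, 0.128) were not.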

How the data were processed

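Gene counts and new-RNA estimates of 17053 mouse genes in 10 libraries were used. Expected counts of reads per gene were deposited unscaled, per the file headers, and 24.8 to 30.3% of genes per library held a count that is not whole. NTR was deposited as a fraction (posterior mode, with a posterior mean used as an alternative), per the file headers, which do not name the quantity. Gene length in bases was deposited too, without a statement of how it was defined. cutadapt, Bowtie2 2.3.0 and STAR 2.7.10b were used per the submitters' processing notes. Not given in the sources used here: build, annotation, strand setting, counter and NTR estimator. In the deposited table, 34 per-library columns were not used.

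Counts were rounded to whole numbers, filtered with filterByExpr and scaled by TMM. The 12218 genes left were tested by quasi-likelihood in edgeR 4.0.16 under R 4.3.3. The fit took in all 10 libraries with group terms and the replicate letter as a block (4 residual degrees of freedom), with Benjamini-Hochberg adjustment and a threshold of 0.05. Fold changes are log2 with SE. The common dispersion was 0.00196 with the block and 0.0187 without it. What a shared letter stands for is not in the labels. Letters were taken as pairs because A minus B differences correlated between groups in all 10 pairs of groups (0.584 to 0.69 across genes). Bins by length and NTR used genes with a mean of 100 counts or more. The fit was tested on simulated counts of 12218 genes. It recovered 64.2% of changes of 1.25-fold, 94% of 1.5-fold and 100% of 2-fold, with 13 false calls. The simulated counts took the letter effect as equal in all groups, so they cannot show whether the block is right.

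The members and lists were chosen with earlier results of these data known. Genes were named by rule: the 10 highest and 10 lowest called log2 fold changes with 10 CPM or more in the higher group, the same sign in both letters and no predicted, clone or pseudogene symbol, up to 4 called members of each list, the leading 3 calls in the end bins of NTR and length, and 8 reference genes. Not every gene so named is reported here. Gene types and overlapping neighbours came from RefSeq's GRCm38.p6 names table, which matched 15966 genes (93.6%). Alternatives were no block, the 4 libraries alone, DESeq2 1.42.0, RLE factors, library totals, other filters, each library left out, other NTR sources, and a length trend removed.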

Additional observations from a re-analysis of the deposited data

How the results depend on the processing

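Without the replicate block, 0 genes were called between TUC and unconverted RNA, higher 0, lower 0, list members 0 and named genes 0 (smallest adjusted p 0.0785), and 0 between TUC and SLAM, against 3151, 1418, 1733, 391, 111 and 2458 with it. A fit of the 4 libraries alone with the block called 5071, 2586 of them higher, with 599 list members. Its spread was estimated from those libraries only. The smallest adjusted p of its edgeR test was 5.19e-156, against 1.63e-07 in the main fit, so the larger number is not stronger evidence. With the length trend removed, chosen after seeing the data, 999 genes, 595 higher, 404 lower, 119 list members and 46 named genes were called. With each library left out in turn, in fits where the lone library of a group is assumed to vary like the other groups, the calls ranged from 568 to 1226, higher from 110 to 392, lower from 376 to 897, list members from 64 to 158, named genes from 49 to 70, and TUC against SLAM from 950 to 2997. DESeq2 with the block called 2412, library totals 2742, RLE factors 3116, no filter 3249 and a mean of 100 counts 3203, each with its shared calls in the same direction. Malat1 turned to -0.454 without TUC A and was 0.679 without TUC B, and Polr1a to 0.00176 and Meg3 to 0.0168 with the length trend removed. The cause was not tested. Highest minus lowest NTR bin (-0.264) ranged from -0.296 to -0.223, and longest minus shortest length bin (-0.432) from -0.437 to -0.427. With 2 libraries a group, an exact permutation test cannot go below 0.333.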
